A study of Mus musculus with 12 samples.

Results

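DEM, diethyl maleate, was given to fibroblasts that have no small Maf protein, and the RNA of 3 DEM libraries was compared with that of 3 vehicle libraries. These are the 6 of the series' 12 libraries whose titles read mock, paired by the replicate number in the title. All 12 libraries come from immortalized mouse embryonic fibroblasts of the genotype MafF-/-::MafG-/-::MafK-/-, grown in medium with 10% serum, and so the vehicle controls carry the 3 deletions too. The 4 groups of 3 libraries are mock cells with vehicle for 12 h, mock cells with 100 µM DEM for 12 h, and T-N2G cells, which express a tethered Nrf2-MafG dimer, with either treatment. The labels do not say what the mock cells received, whether they are 1 clone, or whether replicates were separate cultures, so p-values measure the spread between these libraries, which may be technical.

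DEM is an electrophile that reacts with glutathione, the main thiol of the cell, and so lowers it. The usual answer runs through Nrf2, which pairs with a small Maf protein to bind antioxidant response elements in genes for glutathione synthesis, detoxification and iron handling. Other stress pathways use other factors: Atf4 for shortage of amino acids and unfolded protein in the endoplasmic reticulum (ER), Hsf1 for damaged cytosolic protein, and Mtf1 for zinc. The comparison asks which part of the electrophile response appears when Nrf2 has no small Maf partner.

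The mock libraries held 20424988 to 23095692 fragments. Levels are CPM, the usual count scale on which all libraries have the same total, after TMM scaling, and 3 values in a row are replicates 1, 2 and 3. Of 24318 genes deposited, 12469 had enough fragments to test. A log2 fold change is DEM over vehicle, ± its approximate standard error, between n = 3 libraries per group. A gene is called higher or lower where the Benjamini-Hochberg adjusted p of edgeR's quasi-likelihood test is under 0.05 over all tested genes, with the replicate number as a block. The words "without the block" mark the same test with the libraries unpaired. All 14 fibroblast markers had fragments, though Lum had at most 2 in a library and was not tested. Sums of cell type markers are CPM of all fragments of a library, without TMM scaling. The sum of the fibroblast markers lay at 15846 to 17408 CPM in vehicle and 14824 to 15601 in DEM. Of the 13 fibroblast markers tested, 1 was higher and 8 lower, against 20.9% and 21.9% of all tested genes, or 0 and 0 without the block. Of the 10 macrophage and leukocyte markers 2 had no fragment in any mock library, and the list summed to 6.02 to 7.76 CPM in vehicle and 5.95 to 6.97 in DEM. Endothelial markers (1 of 8 without a fragment) summed to 11.1 to 17.6 CPM in vehicle and 7.66 to 12.9 in DEM, and muscle markers (3 of 8) to 9.11 to 18.0 and 11.4 to 18.1. Adipocyte markers (3 of 6) summed to 19.7 to 24.0 and 19.6 to 21.3 CPM. Epithelial markers (1 of 9) stood higher, at 112 to 168 CPM in vehicle and 92.1 to 135 in DEM, with Krt5 at 0 and Krt19 at 1755 to 3013 fragments (log2 -0.30 ± 0.05, adjusted p = 0.000146, 0.231 without the block). Neural markers (3 of 7) summed to 403 to 524 and 423 to 502 CPM, with Sox2 and Rbfox3 at 0, Nes at 6469 to 9475 fragments (adjusted p = 0.632) and Map2 at 966 to 1542 (log2 -0.23 ± 0.07, adjusted p = 0.0162, 0.498 without the block). The call of Map2 was also lost without replicate 2, mock vehicle replicate 2 or 3, or mock DEM replicate 2 (adjusted p = 0.128, 0.0570, 0.0698 and 0.213). These genes were singled out after their values were seen, and the part of such RNA in the results was not tested.

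The deleted genes came first. Mafg stood at 0.5498, 0.519 and 0.472 CPM in vehicle and at 0.932, 0.878 and 0.8197 in DEM, under 1 CPM in all 6 libraries. Its log2 fold change of 0.76 ± 0.28 had an adjusted p of 0.0379, or 0.229 without the block, and the call was also lost in 7 of the 9 tests that left out libraries (up to 0.229 over all alternatives). Maff stood at 4.598, 4.25 and 3.35 CPM and then 4.27, 5.69 and 3.49, and Mafk at 2.199, 2.17 and 1.75 and 2.11, 2.68 and 2.33, without a call (adjusted p = 0.556 and 0.333). The table gives 1 total for each gene, with no split by exon, and the labels do not name the exons removed, so the values are no check of the deletions. Nfe2l2, the Nrf2 gene, stood at 47.4, 58.5 and 53.7 CPM in vehicle and 59.5, 66.7 and 61.1 in DEM. Its log2 fold change of 0.23 ± 0.12 was not called (adjusted p = 0.118). It was called with mock libraries alone (adjusted p = 0.000742), with no filter on low counts (0.0401), and without replicate 2, mock vehicle replicate 2 or mock DEM replicate 3 (0.00768, 0.0123 and 0.0391). Of 10 tested CNC, Bach, Keap1 and small Maf genes 3 were higher and 2 lower, counts near the 20.9% and 21.9% of all tested genes. They were 1 and 1 without the block and 1 and 1 without replicate 3. The count lower was also 1 without replicate 1, mock vehicle replicate 1 or 2, or mock DEM replicate 3. Nfe2l1, the gene of the sister factor Nrf1, rose from 288, 304 and 291 to 346, 346 and 363 CPM (1.195-fold, adjusted p = 5.29e-05), and Bach2, a repressor, fell from 69.2, 62.5 and 55.4 to 42.1, 37.96 and 38.3 (1.58-fold, adjusted p = 3.91e-07). Keap1, which holds Nrf2 back, stood at 64.7, 70.6 and 67.1 and 70.5, 79.2 and 78.1 CPM (1.12-fold, adjusted p = 0.00612, 0.121 without the block and 0.0545 without replicate 3).

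DEM moved many genes by small amounts, and few of the rises were large. In mock cells 2603 genes were higher and 2736 lower, 20.9% and 21.9% of the tested genes, the shares against which the count of each list below stands. The median called rise was 1.20-fold and the median called fall 1.25-fold. At least 2-fold, 36 genes rose and 175 fell, 0.289% and 1.40% of the tested genes. Falls thus outnumbered rises among the large changes. Without the block the calls were 967 higher and 770 lower (7.76% and 6.18%), 27 and 81 of them (0.217% and 0.650% of tested genes) at least 2-fold. Of all tested genes 33.5% had vehicle and DEM libraries that did not overlap. The median log2 fold change of all tested genes was -0.01.

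**Figure D1:**
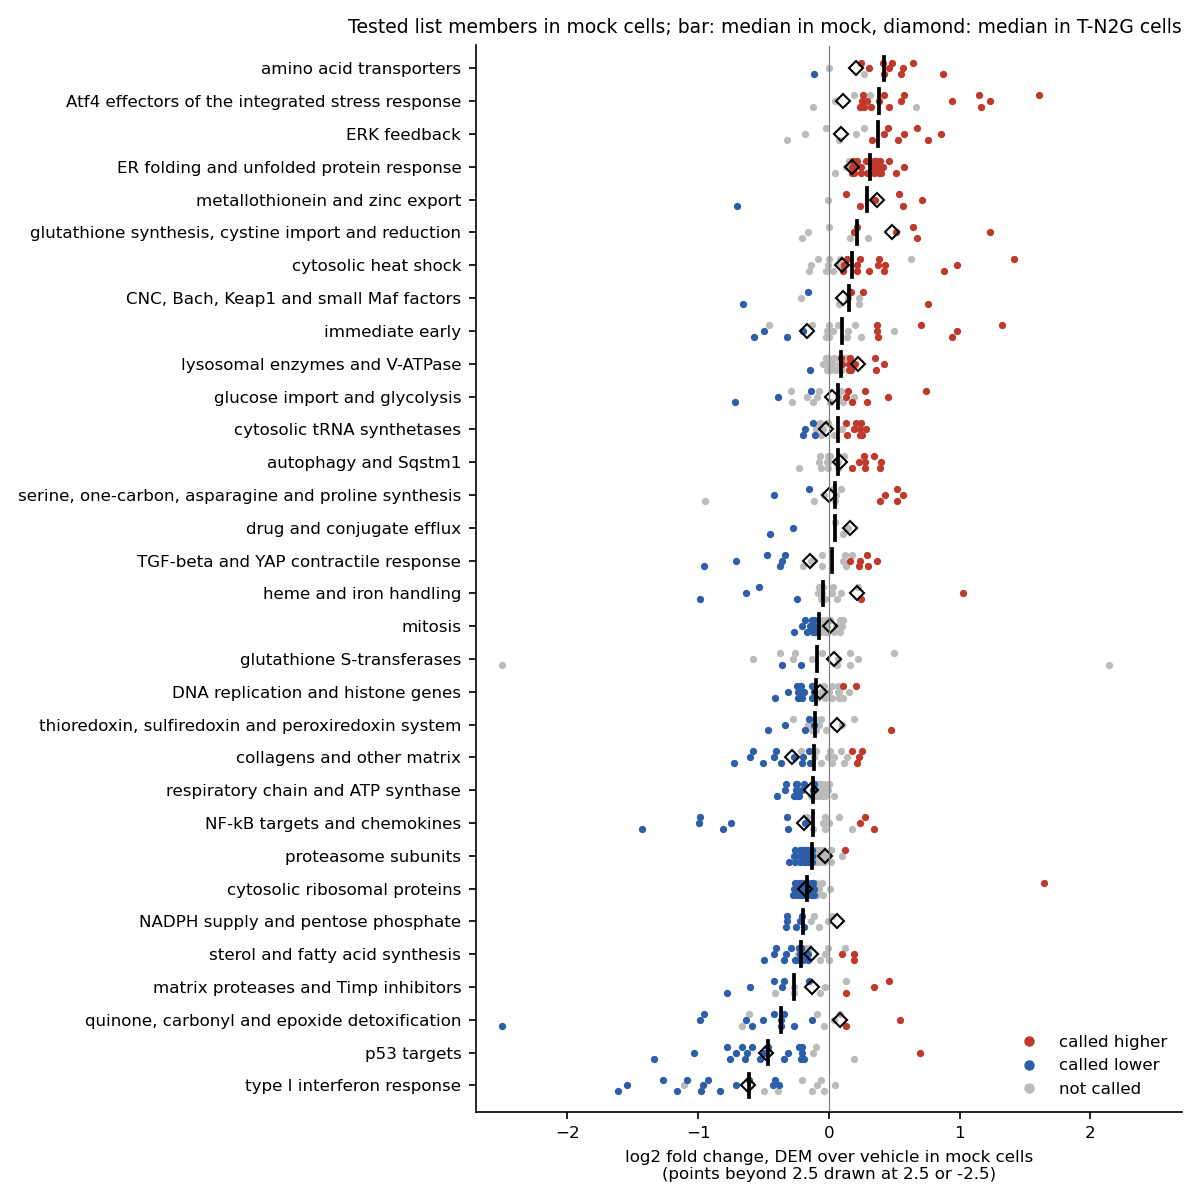
Log2 fold change, DEM over vehicle in mock cells, of each tested member of 32 gene lists, ordered by the list's median. Points are genes (red called higher, blue called lower, grey not called), bars are medians in mock cells and open diamonds are medians in T-N2G cells. Most Atf4 effectors, amino acid transporters and ER genes lie to the right of 0, and most p53 targets and interferon genes to the left. The lists of serine and one-carbon genes and of tRNA synthetases lie on both sides, with medians near 0. The diamonds of 5 lists of antioxidant and detoxification genes lie above 0 with their bars below it.

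Most tested effectors of Atf4 rose in mock cells. Atf4 is the factor of the integrated stress response, which senses lack of amino acids, heme or ER capacity. Of 21 tested Atf4 effectors 16 were higher and 0 lower, with a median log2 fold change of 0.39 (11 higher without the block). Trib3, a pseudokinase that feeds back on the pathway, stood at 9.75, 9.44 and 9.62 CPM in vehicle and 27.3, 27.8 and 32.4 in DEM. The 3 vehicle libraries were nearly equal and all 3 DEM libraries lay far above them, a rise of 3.05-fold (log2 1.61 ± 0.11, adjusted p = 4.28e-08). Chac1, which breaks down glutathione, went from 8.497, 8.73 and 8.68 CPM to 18.6, 22.1 and 20.1, again with no overlap (2.35-fold, log2 1.23 ± 0.09, adjusted p = 7.39e-08). Ddit3, the stress factor CHOP, rose from 7.05, 6.702 and 9.999 to 18.8, 16.00 and 17.7 CPM (2.21-fold, adjusted p = 2.55e-07). Its gene overlaps Mars1 and Mbd6 in the RefSeq annotation, so reads could be shared. Atf5, a sister factor of Atf4, rose from 44.03, 46.5 and 52.4 to 96.9, 102 and 121 CPM (2.24-fold, adjusted p = 1.55e-09), and it overlaps Nup62.

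Atf3, another stress factor of the family, was less even. It stood at 3.199, 3.07 and 3.54 CPM in vehicle and 4.81, 9.48 and 4.88 in DEM, where replicate 2 had about as much as both others together. The rise was 1.92-fold (log2 0.94 ± 0.18, adjusted p = 0.000609). Herpud1, which serves the disposal of ER proteins and belongs to the ER list as well, rose from 73.8, 77.1 and 82.3 to 119, 113 and 115 CPM (1.49-fold, adjusted p = 3.46e-07). Its 3 DEM libraries were closer to each other than those of Atf3.

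Genes that bring in or make amino acids moved in the same comparison. Of 13 amino acid transporters 10 were higher and 1 lower (median 0.42), or 9 and 0 without the block. Slc3a2, the shared chain of several transporters, rose from 167, 136 and 174 to 232, 235 and 275 CPM (1.56-fold, adjusted p = 1.60e-07). Its partner Slc7a5, which carries leucine, rose 1.398-fold (adjusted p = 3.48e-06), and Slc7a1, the arginine carrier, rose 1.47-fold from 163, 137 and 158 to 223, 211 and 239 CPM (adjusted p = 6.72e-08). Slc38a2, which imports neutral amino acids such as glutamine, rose 1.37-fold (adjusted p = 1.89e-06). Vehicle and DEM libraries did not overlap for any of these 4 genes.

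Of 14 genes for serine, one-carbon units, asparagine and proline 5 were higher and 2 lower, with a median of 0.05 near that of all tested genes. The count lower was 1 without the block, with no filter, by DESeq2, and without replicate 1, replicate 2, mock vehicle replicate 1 or 2, or mock DEM replicate 1. Asns, asparagine synthetase, rose from 165, 156 and 156 to 204, 195 and 225 CPM (1.31-fold, log2 0.39 ± 0.05, adjusted p = 6.97e-06). Mthfd2, the mitochondrial one-carbon enzyme, rose 1.34-fold (adjusted p = 3.13e-06), and Psph, the last step of serine synthesis, 1.44-fold (adjusted p = 9.24e-05). Psph overlaps Cct6a. Mthfd1, the cytosolic one-carbon enzyme, fell 1.33-fold from 172, 144 and 151 to 125, 109 and 116 CPM (adjusted p = 7.99e-07). The mitochondrial and the cytosolic enzyme of the same step series thus moved apart.

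Of 20 cytosolic tRNA synthetases, which load amino acids onto tRNA, 9 were higher and 4 lower (median 0.07), or 4 and 0 without the block. The count lower was 1 without replicate 1 and 2 without replicate 2, mock vehicle replicate 2, mock DEM replicate 1 or mock DEM replicate 3. Gars, for glycine, rose from 335, 299 and 323 to 379.6, 348 and 398 CPM (1.18-fold, adjusted p = 0.000451), and Aars, for alanine, from 365, 369 and 374 to 419.6, 412 and 483 (1.19-fold, adjusted p = 0.000540). Nars, for asparagine, rose 1.22-fold (adjusted p = 7.52e-05, 0.0762 without the block). Wars, for tryptophan, was lower in each pair, at 106, 82.9 and 98.6 CPM against 91.8, 72.03 and 86.1 (1.15-fold, adjusted p = 0.000786, 0.271 without the block), although the groups overlap.

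Promoter stretches upstream of 3 genes of this response are shown because each holds the letters TGATGNAA, the core of the element that C/EBP and Atf4 bind together. They are from RefSeq on GRCm38.p6, 5′ to 3′ on the gene's strand, with the match in capitals (read as TTNCATCA where the element lies on the other strand).
Chac1, chr2:119350992-119351116, plus strand: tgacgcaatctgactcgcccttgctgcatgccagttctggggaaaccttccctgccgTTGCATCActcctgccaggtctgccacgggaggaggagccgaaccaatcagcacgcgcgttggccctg
Asns, chr6:7693210-7693292, minus strand: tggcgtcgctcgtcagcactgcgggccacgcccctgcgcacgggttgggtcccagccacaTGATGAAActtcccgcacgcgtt
Gars, chr6:55037911-55038000, plus strand: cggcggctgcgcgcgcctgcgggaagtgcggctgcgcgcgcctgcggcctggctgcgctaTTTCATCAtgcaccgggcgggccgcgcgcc
The first base of the match lies 193 bases before the start site in Chac1, 23 in Asns and 30 in Gars. The letters were searched for on either strand of the 250 bases before each start site, and a gene with several sites counts where any holds them. Of the 21, 19 matched a RefSeq promoter, and 6 of these 19 Atf4 effectors with a RefSeq promoter hold the letters (31.6%). In the other lists of this response 3 of 13 serine, one-carbon, asparagine and proline genes, 3 of 13 tRNA synthetases and 0 of 9 transporters hold them. The share is 2.34% among the 9479 tested genes that matched, and 3.91% among all 27025 genes with a promoter there. Of the genes called higher by at least 1.5-fold (1.53% of tested genes) 7.86% hold them. Of genes called at any size, 2.75% of those higher and 2.19% of those lower hold them. These are matches of letters, not measured binding.

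Most genes of the ER list also rose. Of 26 tested genes for ER folding and the unfolded protein response 23 were higher and 0 lower, with a median of 0.32 and a range of 0.05 to 0.58. Without the block 12 were higher. Calr, a chaperone for sugar-bearing proteins and one of the most abundant RNAs of the list, rose from 2640.2, 2315 and 2479.9 to 3635, 3208 and 3074 CPM (1.33-fold, log2 0.41 ± 0.05, adjusted p = 4.82e-06). Hyou1, a large ER chaperone, rose from 492, 371 and 454 to 671, 508 and 539 CPM (1.31-fold, adjusted p = 4.90e-06, 0.0868 without the block), and vehicle and DEM libraries overlapped for neither gene. Dnajc3, which restrains the kinase PERK, rose 1.304-fold and Edem1, which hands misfolded proteins to disposal, 1.31-fold (adjusted p = 5.19e-06 and 5.13e-06). Both lay at 156, 137 and 149.6 and 126, 127 and 122 CPM in vehicle and at 215, 176 and 186 and 182, 167 and 146 in DEM.

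Of 24 cytosolic heat shock genes 14 were higher and 0 lower (median 0.18), or 6 without the block and 8 without replicate 2. Hspa1b, the inducible Hsp70, was the member with the largest rise, from 21.1, 22.9 and 21.9 to 51.7, 77.5 and 48.3 CPM (2.66-fold, log2 1.41 ± 0.10, adjusted p = 6.59e-08). Its DEM libraries were uneven, with replicate 2 highest, but all lay above all vehicle libraries. The near-identical Hspa1a rose from 3.199, 3.54 and 2.97 to 5.74, 6.89 and 5.26 CPM (1.84-fold, adjusted p = 4.69e-05), and how reads were split between the copies is uncertain. Hspa4l, an exchange factor for Hsp70, rose from 19.7, 23.1 and 17.9 to 39.7, 44.8 and 35.2 CPM (1.97-fold, adjusted p = 1.58e-08). Dnajb1, the Hsp40 partner, rose 1.34-fold and Bag3, which links Hsp70 to autophagy, 1.298-fold (adjusted p = 8.01e-06 and 4.56e-05). Hsph1, a further exchange factor, rose 1.34-fold (adjusted p = 3.44e-05, 0.0684 without the block).

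A stretch upstream of Hspa1b is shown with the letters GAANNTTC, part of the element that Hsf1 binds, in capitals (RefSeq, GRCm38.p6, chr17:34959275-34959402, minus strand).
Hspa1b: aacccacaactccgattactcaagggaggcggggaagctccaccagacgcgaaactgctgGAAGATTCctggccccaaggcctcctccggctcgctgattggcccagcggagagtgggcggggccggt
The match starts 104 bases before the start site. In the 250 bases before the start, on either strand, 8 of 19 heat shock genes hold these letters (42.1%), against 6.03% of tested genes and 7.73% of all genes with a promoter. Of genes called higher by at least 1.5-fold 7.14% hold them. Of genes called at any size, 5.65% of those higher and 7.11% of those lower hold them.

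**Figure D2:**
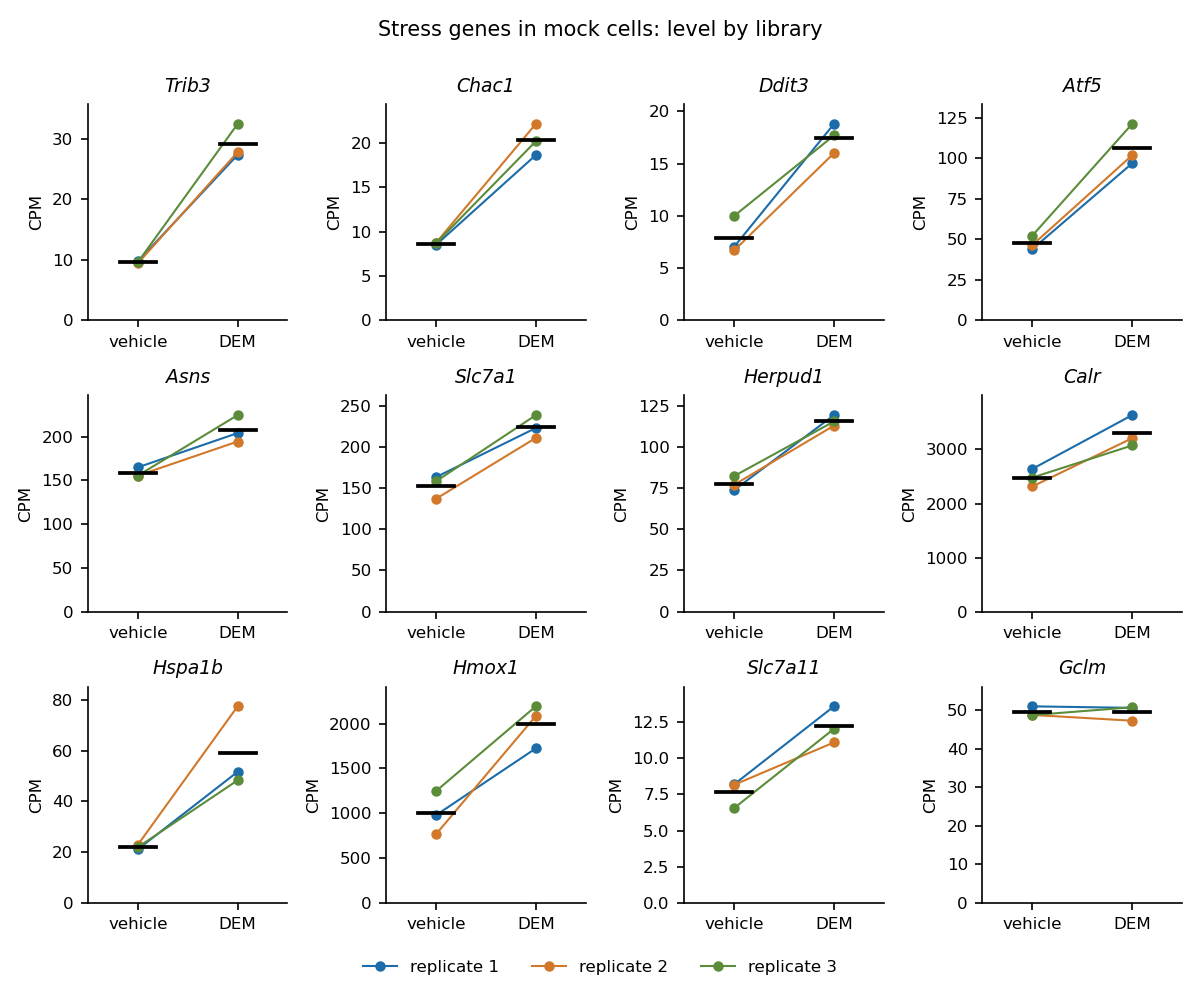
Level in CPM of 12 stress genes in the 3 vehicle and 3 DEM libraries of mock cells, with a panel per gene, with axes from 0. Lines join libraries of the same replicate number and black bars are group means. In 11 panels every DEM library lies above every vehicle library, and in the panel of Gclm the groups overlap.

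Most antioxidant and detoxification genes, which Nrf2 is best known for, were not called higher, with Hmox1 and Slc7a11 among the exceptions. The 7 lists of these genes hold 97 tested genes, of which 11 were higher and 32 lower in mock cells (median -0.10), or 7 and 9 without the block. Of these calls 6 higher and 0 lower stand in the list of glutathione synthesis, cystine import and reduction. Hmox1, which breaks down heme, rose from 978, 766 and 1246 to 1723, 2084 and 2192 CPM. The groups did not overlap and the rise was 2.04-fold (log2 1.03 ± 0.10, adjusted p = 6.90e-07). Hmox1 was among the abundant RNAs of the cells before any DEM. It is also known as a target of factors other than Nrf2.

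Of 11 tested members of the list of glutathione synthesis, cystine import and reduction 6 were higher and 0 lower (median 0.21), or 4 without the block, and 2 of the 6, Chac1 and Slc3a2, also stand in lists above. Gclm, the regulatory subunit of glutamate-cysteine ligase, stood at 50.9, 48.7 and 48.7 CPM in vehicle and 50.5, 47.2 and 50.7 in DEM. The groups overlapped and the log2 fold change was 0.00 ± 0.07 (adjusted p = 0.990). Gclc, the catalytic subunit, went from 38.8, 33.5 and 38.9 to 43.2, 38.8 and 44.7 CPM (1.14-fold, adjusted p = 0.0122, 0.305 without the block). Its call was also lost without replicate 2, mock vehicle replicate 3 or mock DEM replicate 2 (adjusted p = 0.0673, 0.0792 and 0.0545). Gss, which adds the last amino acid, rose from 37.3, 36.5 and 32.6 to 53.6, 49.5 and 48.9 CPM (1.43-fold, adjusted p = 5.19e-06). Slc7a11, the cystine importer and a target of both Nrf2 and Atf4, rose from 8.197, 8.17 and 6.56 to 13.6, 11.1 and 12.04 CPM (1.59-fold, log2 0.67 ± 0.15, adjusted p = 0.00208).

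The stretch upstream of Gclm, which was not called, is shown with the core letters of an antioxidant response element, TGACNNNGC, in capitals. Here they lie on the other strand, as GCNNNGTCA (RefSeq, GRCm38.p6, chr3:122245363-122245491, plus strand).
Gclm: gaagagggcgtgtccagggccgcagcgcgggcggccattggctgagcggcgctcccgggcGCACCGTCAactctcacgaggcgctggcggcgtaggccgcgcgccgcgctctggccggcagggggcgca
The match starts 134 bases before the start site. Of tested genes 14.2% hold these letters within the 250 bases, of genes called higher by at least 1.5-fold 15.7%, and of genes called lower 12.6%. In the lists 2 of 9 glutathione synthesis genes, 3 of 15 glutathione S-transferases and 1 of 18 quinone, carbonyl and epoxide genes hold them. So do 3 of 14 thioredoxin, 1 of 10 NADPH, 1 of 12 heme and iron and 1 of 4 efflux genes.

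Srxn1 and Txnrd1 were not called. Srxn1, sulfiredoxin, stood at 29.6, 33.2 and 32.4 CPM against 31.99, 35.5 and 34.7 (log2 0.10 ± 0.09, adjusted p = 0.387), and Txnrd1, thioredoxin reductase, at 272, 204 and 212 against 214, 196 and 199.7 (log2 -0.16 ± 0.07, adjusted p = 0.0878). Txnrd1 was called lower with mock libraries alone and without replicate 2, mock vehicle replicate 3 or mock DEM replicate 2 (adjusted p = 0.0118, 0.0247, 0.0135 and 0.00497). Nqo1, the quinone reductase, was low at 2.35, 5.66 and 3.77 CPM and then 4.66, 7.49 and 5.09, with overlapping groups. Its 1.46-fold rise had an adjusted p of 0.0446, or 0.235 without the block, and the call was lost without replicate 1, mock vehicle replicate 1 or 3, or mock DEM replicate 1 or 2 (adjusted p up to 0.251 over all alternatives). Of 20 quinone, carbonyl and epoxide genes 2 were higher and 12 lower (median -0.36). The count higher was 0 without the block and 0 to 1 in the tests without libraries. The count lower was 2 without the block, 6 without replicate 2 or replicate 3, and 7 without mock vehicle replicate 2. Akr1b10, an aldo-keto reductase, fell from 3.65, 6.04 and 4.01 to 2.404, 2.22 and 2.37 CPM (1.94-fold, adjusted p = 0.000146). Cbr1, carbonyl reductase, fell 1.29-fold (adjusted p = 0.000224, 0.0514 without the block).

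Genes that supply NADPH, the reducing power for glutathione, leaned down. Of 12 tested genes 0 were higher and 7 lower (median -0.20), or 2 lower without the block. Tkt, transketolase, fell from 160.0, 177 and 175 to 135, 152 and 143 CPM (1.19-fold, adjusted p = 0.000158), and Rpia, the ribose phosphate isomerase, 1.25-fold (adjusted p = 0.00165). Idh2, the mitochondrial NADPH source, fell 1.25-fold (adjusted p = 4.92e-05, 0.0514 without the block). Of 16 glutathione S-transferases 0 were higher and 2 lower (median -0.09), and neither call stood without the block. The thioredoxin list had 1 higher and 5 lower of 16 (median -0.11). No member was called lower without the block, and the count lower lay at 1 to 6 in the tests without libraries, lowest without replicate 1 or mock DEM replicate 3. The member that rose, Txn2, the mitochondrial thioredoxin, went from 107, 84.8 and 98.9 to 141, 123 and 138 CPM (1.39-fold, adjusted p = 3.19e-07).

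Of 17 genes for heme and iron 2 were higher and 4 lower (median -0.05), counts below and near the 20.9% and 21.9% of all tested genes. Besides Hmox1, Aco1, the iron sensor Irp1, rose from 167, 168 and 163 to 193, 199.6 and 196 CPM (1.18-fold, adjusted p = 5.89e-05). Tfrc, the transferrin receptor that brings iron in, fell from 207, 161 and 179 to 109.5, 135 and 106 CPM (1.55-fold, adjusted p = 0.000401), with no overlap. Abcb6, a porphyrin transporter, fell from 14.2, 11.8 and 13.96 to 9.32, 8.04 and 10.1 CPM (1.45-fold, adjusted p = 0.000130).

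Of 8 metallothionein and zinc transport genes 6 were higher and 1 lower (median 0.29). Mt1 and Mt2, small proteins whose thiols hold zinc, rose from 99.4, 127 and 127 to 150.1, 197 and 165 CPM and from 25.5, 27.5 and 24.4 to 36.3, 55.9 and 35.98 CPM. The rises were 1.45-fold (adjusted p = 3.16e-06) and 1.64-fold (adjusted p = 2.70e-05). Slc30a1, which exports zinc, rose 1.48-fold and Mtf1, the zinc-sensing factor, 1.28-fold (adjusted p = 9.94e-06 and 0.000369). Slc39a10, which imports zinc, fell from 81.5, 71.3 and 68.5 to 50.7, 45.9 and 39.2 CPM (1.63-fold, adjusted p = 3.20e-07). Mt3, a further metallothionein named here after its value was seen, had a log2 fold change of 0.00 and was not called (adjusted p = 1.00). The stretch just upstream of Mt1 is shown with a metal response element core, TGCACNC or TGCGCNC, in capitals (RefSeq, GRCm38.p6, chr8:94179006-94179088, plus strand).
Mt1: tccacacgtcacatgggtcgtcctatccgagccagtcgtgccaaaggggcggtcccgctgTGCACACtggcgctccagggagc
The match starts 23 bases before the start site, and 5 of the 8 genes hold such letters (62.5%), against 34.8% of tested genes. Of genes called higher by at least 1.5-fold 30.7% hold them. Of genes called at any size, 37.5% of those higher and 34.9% of those lower hold them.

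Large rises were also found outside these lists. Angptl4, a secreted inhibitor of lipoprotein lipase, went from 0.1999, 0.378 and 0.3302 CPM, near the limit of detection, to 2.159, 3.24 and 2.42 (8.49-fold, log2 3.09 ± 0.33, adjusted p = 2.33e-06). Apobr, a lipoprotein receptor, rose from 2.15, 3.12 and 2.36 to 12.7, 15.4 and 14.8 CPM (5.62-fold, log2 2.49 ± 0.12, adjusted p = 1.55e-09), but it overlaps Cln3 and Il27. Arrdc3, an arrestin-like adaptor, rose from 16.2, 22.5 and 15.05 to 36.01, 43.3 and 28.2 CPM (1.99-fold, adjusted p = 6.21e-08). The genes with the smallest p among the rises included Rhbdd1, a rhomboid protease of the ER, at 35.1, 33.6 and 34.2 CPM against 63.9, 65.8 and 65.7 (1.900-fold, adjusted p = 5.19e-09). Mdc1, a mediator of the DNA damage checkpoint, was 1.605-fold higher and Adam12, a membrane protease, 1.43-fold (adjusted p = 1.58e-08 and 4.28e-08).

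Of 24 immediate early genes 7 were higher and 4 lower (median 0.10), or 6 and 1 without the block, counts near the 20.9% and 21.9% of all tested genes. Fosl1, an AP-1 subunit, rose from 8.15, 4.34 and 6.84 to 16.3, 16.6 and 14.2 CPM (2.51-fold, adjusted p = 9.29e-05), and it overlaps Ccdc85b. Egr1, a zinc finger factor, rose from 39.1, 72.1 and 53.1 to 89.99, 139.5 and 94.05 CPM (1.97-fold, adjusted p = 3.63e-07). Its 3 pairs all rose, and the lowest DEM library lay above the highest vehicle library. Dusp1, a phosphatase for stress kinases, rose 1.63-fold (adjusted p = 4.13e-05). Klf4, a zinc finger factor, fell from 121, 145 and 166 to 83.1, 93.1 and 113 CPM (1.49-fold, adjusted p = 1.23e-06). Of 14 genes that feed back on the kinase ERK 8 were higher and 0 lower (median 0.37), but 2 without the block. Errfi1, an inhibitor of the EGF receptor, rose from 19.8, 13.1 and 14.7 to 25.02, 26.9 and 23.04 CPM (1.59-fold, adjusted p = 0.000172), and Spry2 1.49-fold (adjusted p = 0.000414, 0.0718 without the block).

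**Figure D3:**
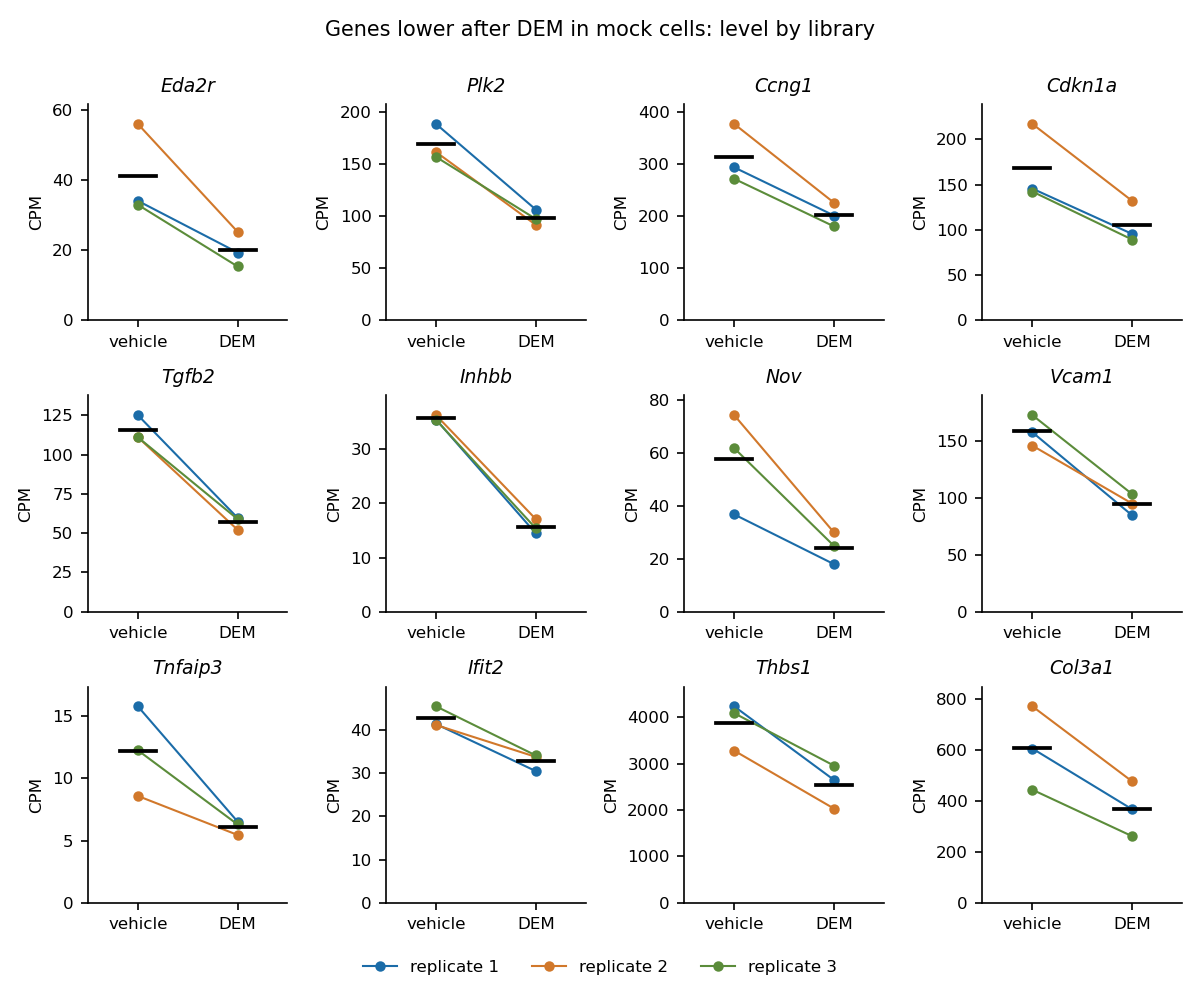
Level in CPM of 12 genes called lower after DEM in mock cells, drawn as for the stress genes, with lines joining libraries of the same replicate number, bars at group means and axes from 0. Each of the 3 pairs falls in every panel, and only for Col3a1 do the vehicle and DEM libraries overlap.

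Most tested targets of p53, the factor that answers DNA damage, fell. Of 23 tested p53 targets 1 was higher and 19 lower, with a median of -0.47, and 8 were lower without the block. Cdkn1a, the cell cycle inhibitor p21, stood at 145, 217 and 142 CPM in vehicle and 95.5, 132 and 89.3 in DEM. Every pair fell, and replicate 2 was the highest in both groups (1.59-fold, log2 -0.67 ± 0.08, adjusted p = 9.56e-06, 0.109 without the block). Eda2r, a member of the TNF receptor family, fell from 34.1, 56.1 and 33.02 to 19.4, 25.3 and 15.4 CPM (2.04-fold, adjusted p = 1.85e-07), and Ccng1, cyclin G1, 1.54-fold (adjusted p = 2.47e-06). Plk2, a polo-like kinase, fell from 189, 162 and 157 to 106, 91.8 and 97.4 CPM with little spread (1.71-fold, log2 -0.78 ± 0.04, adjusted p = 5.19e-09). Ptprv, a phosphatase gene known as a p53 target but not in the list, fell from 5.598, 19.1 and 7.64 to 2.36, 4.53 and 1.64 CPM (3.75-fold, adjusted p = 2.29e-07), and it overlaps Ptpn7. Rrm2b, a ribonucleotide reductase subunit, was the member that rose, from 20.04, 18.8 and 17.9 to 33.3, 27.7 and 30.9 CPM (1.62-fold, adjusted p = 1.35e-06).

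Inflammatory genes fell in part. Of 23 tested genes of the type I interferon response 0 were higher and 14 lower (median -0.61), but 1 without the block, 7 without replicate 3 and 6 without mock vehicle replicate 3. Replicate 3 of the vehicle group held the highest level of several members, such as Rtp4 at 0.8997, 2.03 and 8.68 CPM in vehicle and 0.343, 0.971 and 2.29 in DEM (log2 -1.61 ± 0.24, adjusted p = 6.47e-05, 0.194 without the block). Ifit2, an interferon-induced RNA-binding protein, was more even and fell from 41.3, 41.1 and 45.4 to 30.4, 33.7 and 34.04 CPM (1.302-fold, adjusted p = 9.47e-05). Of 19 tested NF-kB targets and chemokines 3 were higher and 8 lower (median -0.12), or 1 and 3 without the block. The count lower was 4 without replicate 3, mock vehicle replicate 2 or mock DEM replicate 3, and 5 without replicate 1, replicate 2, mock vehicle replicate 1 or mock DEM replicate 1. Vcam1, an adhesion molecule, fell from 158, 146 and 173 to 84.7, 95.1 and 103 CPM (1.68-fold, log2 -0.75 ± 0.05, adjusted p = 4.28e-08). Tnfaip3, the NF-kB brake A20, fell from 15.8, 8.59 and 12.3 to 6.53, 5.46 and 6.299 CPM (1.98-fold, adjusted p = 7.79e-06). Nfkb2, an NF-kB subunit, rose 1.21-fold (adjusted p = 0.000317), so the list did not move as 1 group.

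Several genes with the smallest p or the largest change among the falls stand in no list. Tgfb2, a TGF-beta ligand, stood at 125, 111 and 111 CPM in vehicle and 59.7, 52.1 and 58.9 in DEM (2.03-fold, log2 -1.02 ± 0.06, adjusted p = 5.19e-09). Inhbb, a subunit of activin, fell from 35.5, 36.3 and 35.5 to 14.5, 17.1 and 15.4 CPM (2.29-fold, log2 -1.19 ± 0.08, adjusted p = 1.74e-08). For both genes the highest DEM library lay far below the lowest vehicle library. Nov, a matricellular protein, fell from 36.7, 74.1 and 61.7 to 17.9, 29.9 and 24.8 CPM (2.36-fold, adjusted p = 5.19e-09), with wide spread among the vehicle libraries. Ptx3, a soluble pattern receptor, fell 1.895-fold and Npr3, the clearance receptor of natriuretic peptides, 2.91-fold (adjusted p = 1.64e-08 and 4.28e-08). Other large falls were those of Lrch2 (2.93-fold), Smarca1, a chromatin remodeller (3.201-fold), Tro (2.999-fold), and Apln, the ligand apelin (2.65-fold), with adjusted p = 2.17e-08, 3.46e-07, 2.16e-07 and 3.64e-06. Rnf220, a ubiquitin ligase, fell 1.94-fold from 49.98, 46.3 and 52.2 to 26.4, 21.7 and 28.6 CPM (adjusted p = 1.78e-08).

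Matrix genes moved both ways. Of 27 tested collagens and other matrix genes 4 were higher and 12 lower (median -0.12), or 2 and 2 without the block, and 7 were higher without mock vehicle replicate 2. Col3a1, a fibrillar collagen, stood at 607, 773 and 445 CPM and then 368, 478 and 262, lower in each pair although the groups overlap (1.65-fold, adjusted p = 2.02e-08, 0.119 without the block). Thbs1, thrombospondin 1, fell from 4239.8, 3284 and 4093 to 2652, 2034 and 2961 CPM (1.52-fold, adjusted p = 3.20e-05), and Col8a1, a short-chain collagen, 1.33-fold (adjusted p = 5.91e-06). Col4a1, of the basement membrane, rose from 735, 739 and 728 to 872, 870.3 and 887 CPM (1.19-fold, adjusted p = 0.000101), and it overlaps Col4a2. Of 20 TGF-beta and YAP response genes 6 were higher and 6 lower (median 0.03), or 0 and 2 without the block. Amotl2, an angiomotin, fell from 637, 552 and 582 to 457, 360.3 and 463 CPM (1.39-fold, adjusted p = 3.81e-06). Of 15 proteases and inhibitors 3 were higher and 6 lower (median -0.26), or 1 and 0 without the block. Mmp14, a membrane-bound collagenase, rose 1.27-fold (adjusted p = 3.84e-06) and Timp3, a protease inhibitor, fell 1.52-fold (adjusted p = 3.58e-07, 0.167 without the block).

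Genes for growth and energy were lower by small amounts. Of 36 tested cytosolic ribosomal protein genes 26 were lower and 1 higher (median -0.17), but 4 lower without the block and 17 without replicate 1. Rps4x fell from 864, 836 and 788 to 704, 745 and 674 CPM (1.17-fold, adjusted p = 0.000210). Ribosomal genes have many processed copies in the genome, so their counts are uncertain. Rpl26, the member called higher, is listed at 0 in 2 vehicle libraries and at 3.39, 12.9 and 362 CPM in DEM. The remaining vehicle library did not lie below all DEM libraries, so the groups overlapped, and no fold is given for this gene. Of 28 respiratory chain and ATP synthase genes 14 were lower and 0 higher (median -0.12), or 5 without the block. Ndufs1, of complex I, fell 1.31-fold (adjusted p = 4.14e-06). Of 33 proteasome genes, which serve protein breakdown, 20 were lower and 1 higher (median -0.13), or 5 and 0 without the block and 10 lower without replicate 1. Psmb1 fell from 153, 149 and 136 to 129, 126 and 121 CPM (1.17-fold, adjusted p = 0.000147).

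Of 29 tested sterol and fatty acid synthesis genes 17 were lower and 3 higher (median -0.21), but no member was called without the block. Fdps, farnesyl diphosphate synthase, stood at 100.2, 167 and 113 CPM in vehicle and 85.7, 129.8 and 86.1 in DEM. Replicate 2 was high in both groups and each pair fell (1.25-fold, adjusted p = 7.27e-05, 0.422 without the block). Of 30 DNA replication genes 14 were lower and 2 higher (median -0.10), or 3 lower without the block and 9 without replicate 2 or mock vehicle replicate 2. Rrm1, the large subunit of ribonucleotide reductase, fell from 511, 487 and 449 to 369, 360.1 and 356 CPM (1.33-fold, adjusted p = 3.34e-06). Of 30 mitosis genes 10 were lower and 0 higher (median -0.07), or 1 without the block and 2 without replicate 2. It was 5 without mock vehicle or mock DEM replicate 2, and 4 without mock DEM replicate 3. The glycolysis list had 7 of 21 members higher and 3 lower (median 0.07), or 2 and 0 without the block. Without replicate 2 it had 3 higher and 7 lower, and without mock DEM replicate 2 it had 8 lower. Pfkp, a phosphofructokinase, rose from 50.2, 47.8 and 45.99 to 55.2, 62.6 and 58.4 CPM (1.22-fold, adjusted p = 0.000468).

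Some genes of self-digestion, by autophagy and in lysosomes, were higher by small amounts. Of 20 autophagy genes 8 were higher and 0 lower (median 0.07). Without the block 2 were higher, where 7.76% of all tested genes were. Tfe3, a factor that drives lysosomal genes, rose from 77.4, 85.1 and 87.2 to 107, 108 and 112 CPM (1.31-fold, log2 0.39 ± 0.04, adjusted p = 5.39e-06), and Wipi1, which acts when the autophagosome forms, 1.27-fold (adjusted p = 0.000359). Sqstm1, the cargo receptor p62, rose 1.21-fold from 206, 242 and 237 to 246, 302 and 282 CPM (adjusted p = 5.13e-05, 0.0950 without the block). Of 26 lysosomal genes 10 were higher and 1 lower (median 0.09). The count higher was 3 without the block and 4 to 8 in the tests without libraries, lowest without replicate 2, mock vehicle replicate 2 or mock DEM replicate 2. It was 5 without replicate 1 or mock vehicle replicate 3 and 6 without mock DEM replicate 1. Npc1, which moves cholesterol out of lysosomes, rose from 62.2, 75.00 and 66.9 to 84.3, 98.3 and 91.03 CPM (1.34-fold, adjusted p = 7.85e-07), but it overlaps Rmc1. Mcoln1, a lysosomal calcium channel, rose 1.29-fold (adjusted p = 4.25e-05).

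The same comparison in T-N2G cells, which shares no library with it, shows which effects came with either cell population. There 2846 genes were higher and 2769 lower, 22.8% and 22.2% of those tested. Of the genes higher in mock cells 1936 were higher in T-N2G cells too, 74.4% of the mock list and 68.0% of the T-N2G list, and 15 were lower. Of the genes lower in mock cells 1976 were lower there too, 72.2% and 71.4% of the lists, and 46 were higher. The difference of the 2 DEM effects, tested in the same model, was called for 349 genes, 122 (0.978%) with the mock effect above and 227 (1.82%) with it below. Without the block these were 2 (0.0160%) and 52 (0.417%). The total was 194, 187 and 195 without replicates 1, 2 and 3 and 211 without mock vehicle replicate 2.

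**Figure D4:**
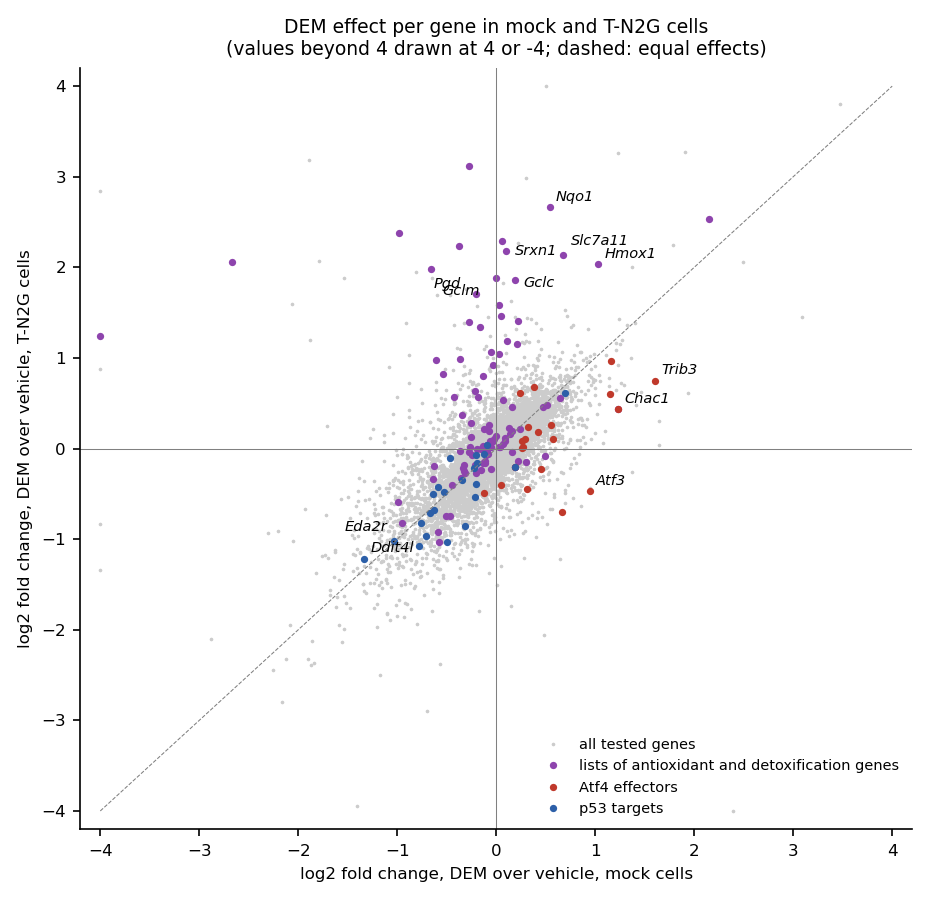
Log2 fold change, DEM over vehicle, of each of the 12469 tested genes in mock cells (horizontal) and T-N2G cells (vertical), with the dashed line at equal effects. Antioxidant and detoxification genes (purple) such as Gclm, Srxn1 and Nqo1 lie above the line, Atf4 effectors (red) such as Trib3 and Chac1 below it on the right, and p53 targets (blue) near the line at the lower left.

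Among the 97 antioxidant and detoxification genes the test called a DEM effect in mock cells below that in T-N2G cells for 34 and above it for 2. In T-N2G cells 48 of them were higher and 13 lower (median 0.13), against 11 and 32 in mock cells. Gclm rose by 1.88 ± 0.07 on the log2 scale in T-N2G cells (difference -1.88 ± 0.10, adjusted p = 2.25e-09), and Srxn1 by 2.18 ± 0.08 (difference -2.08 ± 0.12, adjusted p = 7.63e-09). Hmox1 rose in both, with log2 fold changes of 1.03 ± 0.10 in mock and 2.03 ± 0.10 in T-N2G cells (difference -1.01 ± 0.14, adjusted p = 0.000196, 0.348 without the block). Slc7a11 likewise rose in both, by 0.67 and 2.13 (difference -1.46, adjusted p = 0.000185). Tkt fell in mock cells and rose in T-N2G cells, by 0.29 (adjusted p of the difference = 1.99e-05). Pgd, the NADPH-forming dehydrogenase of the pentose phosphate path, rose by 1.70 in T-N2G cells and stood at 98.3, 96.9 and 103 CPM in mock vehicle and 82.3, 86.04 and 90.1 in mock DEM (adjusted p of the difference = 1.11e-09). Its mock fall was called with the block (adjusted p = 0.0200, 0.274 without it), but not without replicate 1, mock vehicle replicate 2, mock DEM replicate 1 or mock DEM replicate 3 (adjusted p up to 0.274 over all alternatives). Abcb6 and Cyb5a, cytochrome b5, fell in mock cells, with log2 fold changes of -0.54 ± 0.09 and -0.37 ± 0.07, and rose in T-N2G cells by 0.82 and 1.10 (adjusted p of the difference = 8.51e-07 and 1.71e-08).

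Over the 4 lists of the amino acid response together, 68 tested genes, the mock effect was above the T-N2G effect for 10 and below it for 2. Among the 21 Atf4 effectors the mock effect was above the T-N2G effect for 7 and below it for 1, and in T-N2G cells 9 were higher and 4 lower (median 0.10). Trib3 rose by 0.75 in T-N2G cells (difference 0.86 ± 0.16, adjusted p = 0.00555) and Chac1 by 0.43 (difference 0.80 ± 0.14, adjusted p = 0.00201). Herpud1 stood at a log2 fold change of 0.10 in T-N2G cells, which was not called (difference 0.47 ± 0.07, adjusted p = 0.000826). Atf3 differed by 1.41 ± 0.30 (adjusted p = 0.0131). Ddit3 and Atf5 rose in both populations and their differences were not called (0.54 ± 0.14 and 0.19 ± 0.08, adjusted p = 0.0545 and 0.320). Hspa1b rose by 0.48 in T-N2G cells (difference 0.93 ± 0.15, adjusted p = 0.00146). Without the block the difference of Herpud1 stayed called (adjusted p = 0.0426) and those of Trib3, Chac1, Atf3 and Hspa1b did not (adjusted p = 0.123, 0.182, 0.2000 and 0.123). The calls of Trib3 and Chac1 were lost without replicate 2 (adjusted p = 0.0522 and 0.0697), and that of Atf3 without replicate 1, replicate 2 or mock vehicle replicate 2 (adjusted p = 0.0712, 0.119 and 0.0653).

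Of the 23 p53 targets 19 were lower in mock and 17 in T-N2G cells, with medians of -0.47 and -0.48. Cdkn1a had log2 fold changes of -0.67 ± 0.08 in mock cells and -0.71 ± 0.09 with T-N2G (difference 0.04 ± 0.12, adjusted p = 0.950). Those of Tgfb2 were -1.02 ± 0.06 and -1.07 ± 0.06 (difference 0.05 ± 0.08, adjusted p = 0.894). Plk2 fell less in mock cells, with a difference of 0.30 ± 0.06 (adjusted p = 0.00892). That call was lost without the block, replicate 2 or replicate 3 (adjusted p = 1.00, 0.123 and 0.0920). Timp3 also fell less there, -0.60 against -1.24 (adjusted p of the difference = 6.16e-05, 1.00 without the block). The ER list had 23 of 26 members higher in mock and 17 in T-N2G cells (medians 0.32 and 0.18), and the difference was called for 1 member, Herpud1. Mt1 rose less in mock cells (0.54 against 1.02, adjusted p of the difference = 0.00179, 1.00 without the block). Mock and T-N2G cells are separate populations, so what differs between them besides the tethered dimer cannot be told apart from it.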

How the data were processed

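RNA of 12 libraries was sequenced, and the authors deposited a gene table of estimated counts (fragments per gene, 98.3% of values whole) and FPKM. Per the submitters' processing notes, bcl2fastq 2.16.0.10, TopHat2 2.0.8b, Cuffdiff 2.1.1 and mm9 were used, and strand handling is not given in the sources used here. Estimated counts were rounded to whole numbers. Library totals lay between 18863560 and 23095692 fragments (mock 20424988 to 23095692).

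Of 24318 genes 12469 passed edgeR's filter (minimum count 10, total 15). They were fitted with edgeR 4.0.16 (R 4.3.3) by the quasi-likelihood test with TMM scaling over all 12 libraries, with 1 coefficient per group and the replicate number as a block, and p-values were Benjamini-Hochberg adjusted. Libraries were paired by the replicate number of the title, as the comparison is defined. In these same data, same-numbered libraries of different groups deviated together from their group means (r 0.361 to 0.631 over 18 pairs). The 36 differently numbered pairs had r of -0.422 to -0.0036. That is no separate evidence of pairing, since deviations from a group mean sum to 0 within the group. Replicates 1 and 2 carry another series of library codes than replicate 3, so tests without replicate 3 stay within 1 series. The script was tested on simulated data.

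Values are CPM in replicate order 1, 2 and 3, fold changes are from the fit, and ± is a standard error. Members and gene lists were chosen with earlier results of these data known. Genes named are the Nrf2 partners and usual stress readouts, the 12 largest changes per direction without overlap at 2 CPM or more, the 8 smallest p per direction, up to 5 called members per list, and the 8 largest differences per direction. Gene overlaps are from RefSeq on GRCm38, without regard to strand. Of the genes named without such a remark, Aars, Wars, Nfkb2, Pfkp, Txnrd1, Mtf1, Timp3, Ptx3 and Rtp4 also overlap another protein-coding gene. Alternatives were no block, mock libraries alone, RLE scaling, other filters, DESeq2 1.42.0, limma 3.58.1 on log2(FPKM + 1) or log2(FPKM + 0.1) of the deposited FPKM, and leaving out libraries.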

Additional observations from a re-analysis of the deposited data

Results flagged for a closer look

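Results are given here where the DEM effect differed between mock and T-N2G cells by the test of the difference itself, with an adjusted p under 0.05, for genes named above. Each value is the log2 DEM effect in mock cells minus that in T-N2G cells, from n = 3 libraries in each of 4 groups. The test called 30 of the 113 named genes that were followed through the alternatives. Some of these genes were named because this same test called them, so the count is no result about them. Over all 12469 tested genes the mock effect was called above for 0.978% and below for 1.82%. Among the 30 no sign changed under any of the 16 alternatives, 12 were called under all of them, and 18 were not called without the replicate block. Leaving out libraries ended the call of 13.

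Mock effects below those in T-N2G cells were those of Nqo1 (-2.12), Srxn1 (-2.08), Pgd (-1.91), Gclm (-1.88), Gclc (-1.67), Txnrd1 (-1.50), Cyb5a (-1.47), Slc7a11 (-1.46), Abcb6 (-1.36) and Hmox1 (-1.01). Smaller differences in that direction were those of Sqstm1 (-0.74), Tkt (-0.54), Tfe3 (-0.52), Mt1 (-0.49) and Keap1 (-0.33). Of these 15 genes Hmox1, Sqstm1, Mt1 and Keap1 were not called without the block (adjusted p = 0.348, 0.0647, 1.00 and 0.503), and Keap1 not without replicate 1 or replicate 2 (adjusted p = 0.149 and 0.0502).

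Mock effects above those in T-N2G cells were those of Atf3 (1.41), Hspa1b (0.93), Trib3 (0.86), Chac1 (0.80), Hspa1a (0.76), Dusp1 (0.70), Herpud1 (0.47), Arrdc3 (0.41), Slc7a5 (0.37) and Slc7a1 (0.35). The same sign for genes that fell less in mock cells was found for Timp3 (0.63), Thbs1 (0.54), Nov (0.53), Klf4 (0.43) and Plk2 (0.30). Of these 15 only Herpud1 was called without the block (adjusted p = 0.0426). Timp3 and Hspa1b kept the call in every test without libraries, as did Herpud1, while Arrdc3 and Hspa1a lost it in most or all of them.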

How the results depend on the processing

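The libraries share replicate numbers across groups, and the replicate block sets how many genes are called. With the block 2603 genes were higher, 2736 lower and 349 differed in their DEM effect between mock and T-N2G cells, and with no replicate block these were 967, 770 and 54. Tests without libraries gave 1839 to 2303 higher and 1898 to 2413 lower, and every other alternative was within 1.5 times of the counts with the block for higher and lower genes. The count of differences was 194, 187 and 195 without replicates 1, 2 and 3 and 211 without mock vehicle replicate 2, and the other tests without 1 mock library gave 258 to 341. DESeq2 called 2065 higher, 2116 lower and 324 differences, and limma on log2(FPKM + 1) 2467, 2509 and 286. The share of higher among called genes was 48.8%, or 55.7% without the block.

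Of 107 called genes named above 21 lost the call without the block, 100 kept it under each of the other 16 alternatives, and 0 changed direction. Gclm, not called, had a log2 fold change of -0.0014 and was above 0 under 10 alternatives: 0.0013 without the block, 0.00058 with mock libraries alone, 0.0050 with no filter, 0.0011 and 0.0012 by limma with a pseudocount of 1 or 0.1, and up to 0.082 (range -0.099 to 0.082) where libraries were left out. Maff, not called, was at -0.03 without replicate 2 and at -0.14 without mock DEM replicate 2 (range -0.14 to 0.29 without libraries). With 3 libraries a group, tests without a whole replicate number rest on 2 pairs. The smallest called rise was 1.07-fold and the smallest called fall 1.07-fold. These are no common limit of detection, since larger changes with more spread were not called, such as 1.17-fold for Mafk (adjusted p = 0.333). The cause of these shifts was not tested. The tests of list counts and of single differences under each alternative were added after seeing the data.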
